A study of Mus musculus with 8 samples.

Results

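The insulin-like growth factor (IGF) system was described through 10 genes, read by their symbols from the 18691 genes in the deposited tables: 2 ligands (Igf1 and Igf2), 2 receptors (Igf1r and Igf2r) and 6 binding proteins (Igfbp2, Igfbp3, Igfbp4, Igfbp5, Igfbp6 and Igfbp7). All 10 were found, and all passed the filter on low counts. The samples were epididymal white fat of C57BL/6J mice aged 16 weeks, with 4 libraries of genotype Mrp4 KO (Mrp4-/-) and 4 of wild type (WT). Mrp4 is an efflux pump for cyclic AMP and prostaglandins, encoded by Abcc4. No treatment is given for either group, and the promoter, deleted exons and breeding of the knockout are not stated in the labels. The replicates are numbered 1, 2, 4 and 5 in the group labelled Mrp4 KO and 1, 2, 3 and 4 in WT, and nothing says that they came from separate animals, so each p-value measures only the spread between these libraries, which may be technical.

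IGF1 and IGF2 are small secreted relatives of insulin that drive growth, survival and differentiation through the tyrosine kinase receptor IGF1R. IGF2R has no kinase: it takes IGF2 to lysosomes for degradation, and it also carries enzymes tagged with mannose 6-phosphate. The binding proteins hold the ligands in blood and tissue and set how much can reach a receptor, and several of them also bind matrix or cell surfaces. Fat is one of the tissues outside the liver that makes much Igf1 mRNA, under the control of growth hormone, and IGF1 promotes the maturation of preadipocytes.

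Of the 10 genes, 3 rose (Igf2r, Igfbp3 and Igfbp5), 2 fell (Igf1 and Igf2) and 5 did not pass in the libraries labelled Mrp4 KO. Among all 14257 tested genes 18.3% passed, with 10.2% higher and 8.05% lower, against 5 of these 10. The genes that rose were 1 receptor and 2 binding proteins, and those that fell were both ligands. The median log2 fold change was 0.13 over the 10 genes and 0.00 over all tested genes. Group ranges in FPKM did not overlap for 3 of the 10 genes, where 23.5% of all tested genes had ranges that did not. A gene passed at an adjusted p under 0.05 in the quasi-likelihood test of edgeR, adjusted by Benjamini-Hochberg over all tested genes, and adjusted p-values below are from that test unless another is named. Levels are in FPKM, which divides fragments by transcript length and by depth, so they can be compared between genes. Each fold change is the fitted one, labelled Mrp4 KO over WT, with its standard error (SE).

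**Figure D1:**
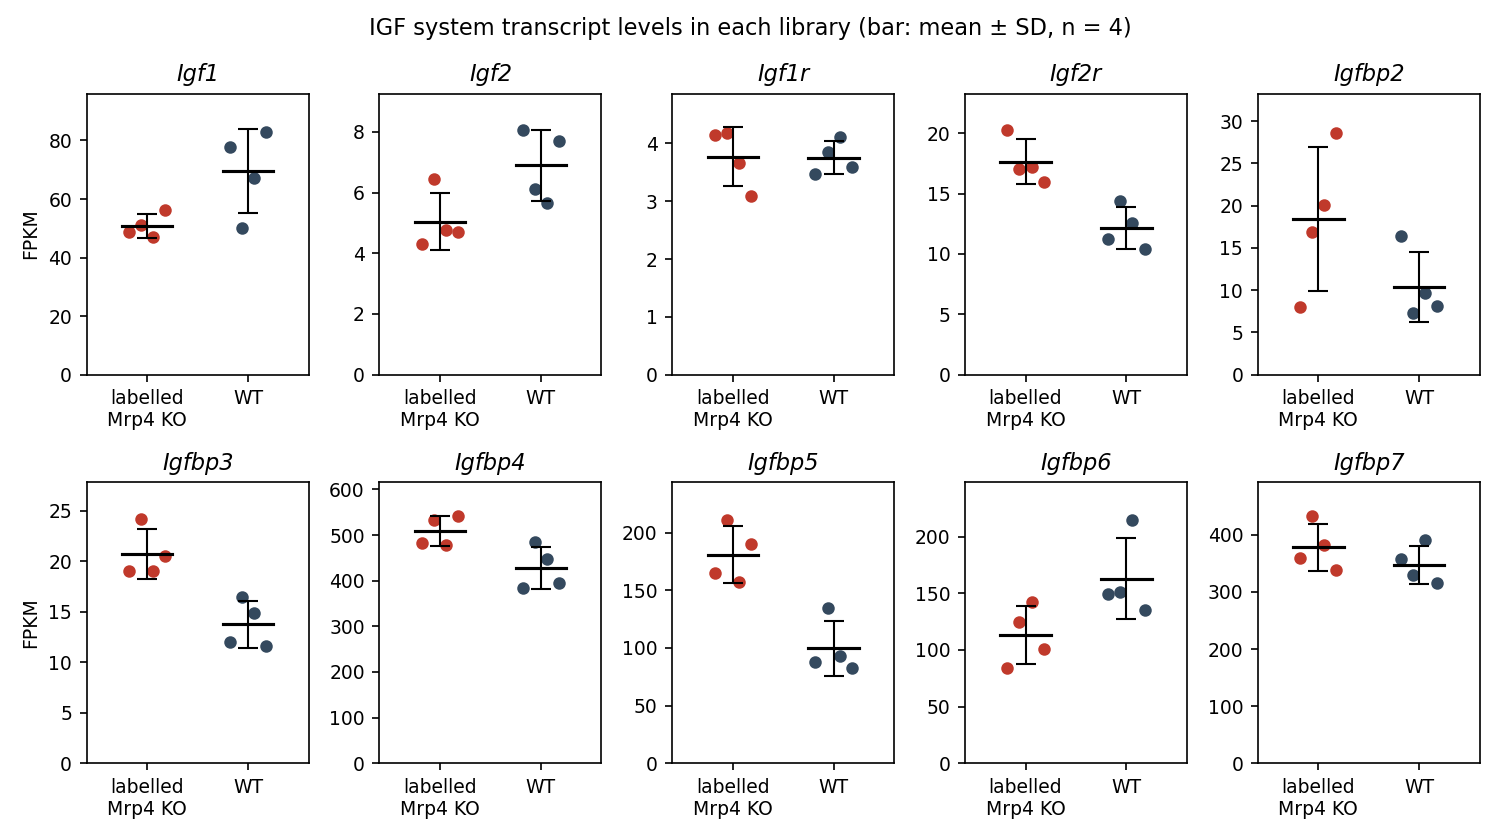
Level of each IGF system gene in FPKM in every library, with the 4 libraries labelled Mrp4 KO in red on the left of each panel and the 4 WT libraries in dark blue on the right; bars give the mean and the SD. The groups lie fully apart for Igf2r, Igfbp3 and Igfbp5 and overlap for the other 7 genes.

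Total expected counts were 14064680.8 to 14700113.8 per library. Abcc4, the gene named by the label, averaged 3.61 ± 0.244 FPKM in the libraries labelled Mrp4 KO and 3.52 ± 0.232 FPKM in WT, with overlapping ranges and no drop that passed (SD, n = 4 each; log2 fold change -0.05 ± 0.08 SE, edgeR adjusted p = 0.6924). Gene-level counts cannot show whether a deleted stretch was missed, and every direction below rests on the label. Adipoq, Plin1 and the other adipocyte markers summed to 23243.4 to 27924.8 FPKM in the libraries labelled Mrp4 KO and to 28790.9 to 32830.1 FPKM in WT, so the markers of the labelled tissue were high in every library, and the sums lay apart with the libraries labelled Mrp4 KO lower. Of 12 adipocyte markers 1 rose, 3 fell and 8 did not pass, so 33.3% passed where 18.3% of all tested genes did. Without Cfd, the adipsin gene and one that fell, the sums overlapped, at 19606.6 to 25510.1 FPKM in the libraries labelled Mrp4 KO and 18015.7 to 22511.6 FPKM in WT. Liver transcripts were present as well, and far higher in the group labelled Mrp4 KO; their values stand below beside the genes that hepatocytes also make.

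Both ligand genes fell. Igf1 (gene 16000), the main growth hormone target of the system, stood at 48.7, 51.2, 47.1 and 56.3 FPKM in the libraries labelled Mrp4 KO (replicates 1, 2, 4 and 5), against 77.7, 50.2, 67.3 and 82.8 FPKM in WT (replicates 1 to 4). WT replicates 1, 3 and 4 lay above every library labelled Mrp4 KO, while WT replicate 2 lay among them, so the groups overlapped. The mean was 50.8 ± 4.04 FPKM in the libraries labelled Mrp4 KO and 69.5 ± 14.4 FPKM in WT (SD, n = 4 each), and the log2 fold change was -0.52 ± 0.15 (edgeR adjusted p = 0.03987; fold 0.695 with a 95% interval of 0.55 to 0.878). This call was close to the threshold: it held without WT replicate 2 (-0.65) and was lost when any 1 of the other 7 libraries was left out, with log2 fold changes from -0.59 to -0.42. It was also lost with library size alone and with limma on FPKM (-0.45 to -0.42). In bulk tissue, fewer cells that make a transcript and less of it per cell cannot be told apart.

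Igf2 (gene 16002), which is expressed from the paternal allele and is best known as a fetal growth factor, was far lower than Igf1 in both groups. It stood at 4.29, 6.44, 4.75 and 4.7 FPKM in the libraries labelled Mrp4 KO, against 8.07, 6.13, 5.67 and 7.69 FPKM in WT. Replicate 2 labelled Mrp4 KO reached into the WT range and the other 3 lay below it. The log2 fold change was -0.52 ± 0.16 (SE) with an edgeR adjusted p = 0.04998, at the edge of the threshold. The call of Igf2 was lost on leaving out WT replicate 1 or 4, or any of replicates 1, 4 and 5 labelled Mrp4 KO (-0.49 to -0.43) and also with library size alone, with upper quartile factors, with a filter at 1 CPM, with limma-voom and with limma on FPKM.

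Within each library the balance of the ligands varied little between the groups. The ratio of Igf1 to Igf2 in FPKM was 7.96 to 12 in the libraries labelled Mrp4 KO and 8.19 to 11.9 in WT. The summed level of both was 51.8 to 61.0 FPKM in the libraries labelled Mrp4 KO and 56.3 to 90.5 FPKM in WT. The spread of Igf1 was smaller in the group labelled Mrp4 KO, with a coefficient of variation of 7.95%, against 20.7% in WT; this difference in spread was not tested.

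The deposited transcript length of Igf1 differed between libraries, and the tables list several RefSeq transcripts for this gene. It averaged 5772.3 ± 284 bases in the libraries labelled Mrp4 KO and 5817.3 ± 247 bases in WT (SD, n = 4 each), and the group ranges overlapped (exact two-sided permutation p = 0.8). FPKM divides by this length, and the counts do not. In expected counts, Igf1 ran from 3676 to 4601 in the libraries labelled Mrp4 KO and from 4411 to 6854 in WT.

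The receptor genes differed from each other. Igf2r (gene 16004), the scavenging receptor for IGF2 and the lysosomal enzyme carrier, was at 20.3, 17.0, 17.2 and 16.0 FPKM in the libraries labelled Mrp4 KO, against 11.2, 14.4, 12.6 and 10.4 FPKM in WT. Every library labelled Mrp4 KO lay above every WT library. The log2 fold change was 0.47 ± 0.10 (SE; fold 1.38, interval 1.18 to 1.62 at 95%; edgeR adjusted p = 0.01618), and Igf2r stayed past the threshold without any 1 of the 8 libraries. The antisense RNA Airn overlaps Igf2r in the RefSeq annotation. Airn was at 6.51 to 7.7 FPKM in the libraries labelled Mrp4 KO and 4.7 to 7.68 FPKM in WT. In expected counts Airn had 102 to 113 and 73 to 121 in these groups, against 2004 to 2630 and 1335 to 1849 for Igf2r. The counting is not stated to use strand, so reads from a stretch that the pair shares cannot be told apart.

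Igf1r (gene 16001), the signalling receptor, was the least abundant of the 10 genes and did not pass. Its values were 4.15, 4.18, 3.67 and 3.09 FPKM in the libraries labelled Mrp4 KO, against 3.47, 3.85, 4.12 and 3.59 FPKM in WT, and the groups overlapped throughout. The log2 fold change was -0.06 ± 0.09 (SE; edgeR adjusted p = 0.6755) and lay between -0.07 and 0.01 under the other scalings and tools, and the 95% interval of the fold ran from 0.828 to 1.11, so a change of Igf1r as large as the fitted rise of Igf2r was outside it. The ratio of Igf2r to Igf1r in FPKM was 4.06 to 5.17 in the libraries labelled Mrp4 KO and 2.91 to 3.74 in WT, without overlap.

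**Figure D2:**
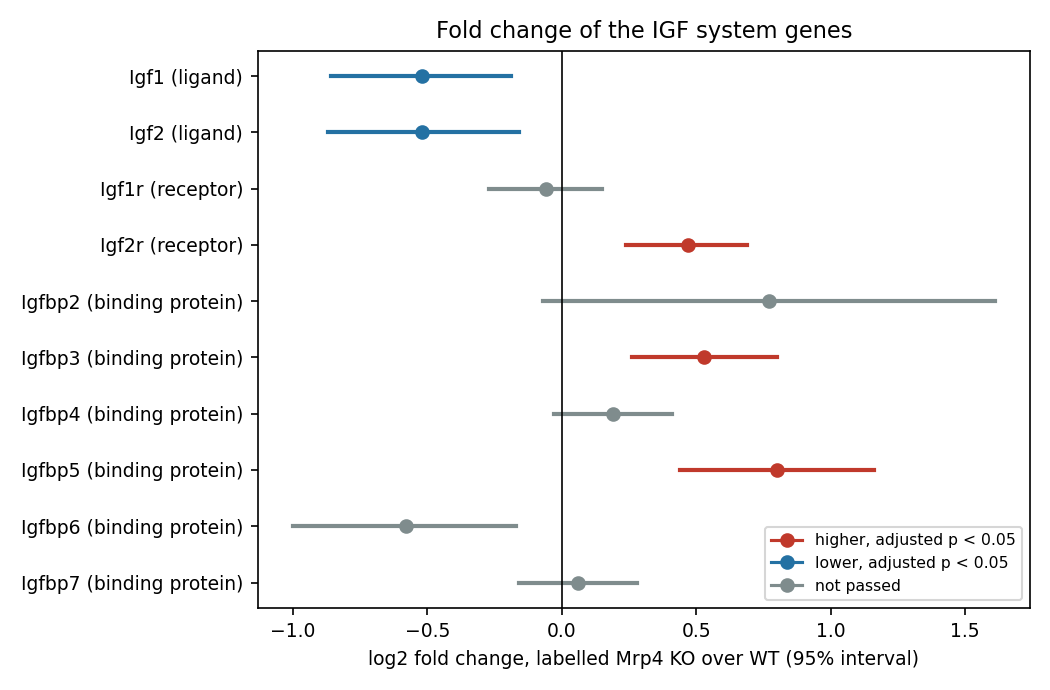
Fitted log2 fold change of each gene, labelled Mrp4 KO over WT, with its 95% interval; red marks genes that passed higher, blue those that passed lower and grey those that did not pass. Igf1 and Igf2 sit at -0.52, Igf2r, Igfbp3 and Igfbp5 at 0.47, 0.53 and 0.80, and Igfbp2 has the widest interval.

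Among the binding proteins, Igfbp5 and Igfbp3 rose. Igfbp5 (gene 16011) encodes a form that also binds extracellular matrix. It was at 165, 211, 157 and 190.0 FPKM in the libraries labelled Mrp4 KO, against 87.8, 135, 92.9 and 82.9 FPKM in WT. The highest WT library, replicate 2, was still below the lowest library labelled Mrp4 KO. With a log2 fold change of 0.80 ± 0.16 (SE; fold 1.74, interval 1.36 to 2.23 at 95%; edgeR adjusted p = 0.0124) Igfbp5 had the lowest p of the 10 genes, and it passed without any 1 of the 8 libraries (0.72 to 0.96).

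Igfbp3 (gene 16009) encodes the main IGF carrier of blood, which joins IGF and the acid-labile subunit in a ternary complex. It was at 19, 24.2, 19 and 20.5 FPKM in the libraries labelled Mrp4 KO, against 12, 16.4, 14.9 and 11.6 FPKM in WT, and the groups did not overlap. The log2 fold change was 0.53 ± 0.12 (SE; fold 1.44, interval 1.2 to 1.74 at 95%; edgeR adjusted p = 0.0185). Without WT replicate 4 it was 0.46 and just missed the threshold (edgeR adjusted p = 0.05136). Permuting the libraries over log2(FPKM + 1), exact and two-sided, gave p = 0.0286 for Igf2r, Igfbp3 and Igfbp5 alike, the smallest that 4 against 4 libraries allow, and 23.5% of all tested genes reached it.

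The windows of 250 bases before the RefSeq start of the 3 genes that rose are shown for comparison (RefSeq, build GRCm38.p6, each read along its gene's strand, 5′ to 3′). Igf2r lies at chr17:12769707-12769956 (minus strand), Igfbp3 at chr11:7213924-7214173 (minus strand) and Igfbp5 at chr1:72874866-72875115 (minus strand). Capitals mark matches, on either strand, to the GC box GGGCGG, to TGACG, the short core of the cyclic AMP response element, and to the TATA-like runs TATATA and TATTTAA.
Igf2r: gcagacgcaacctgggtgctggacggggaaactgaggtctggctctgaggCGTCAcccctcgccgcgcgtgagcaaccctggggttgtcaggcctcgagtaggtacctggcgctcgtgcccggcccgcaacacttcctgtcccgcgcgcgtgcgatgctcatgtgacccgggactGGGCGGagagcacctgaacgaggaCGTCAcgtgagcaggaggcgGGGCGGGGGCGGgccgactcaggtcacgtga
Igfbp3: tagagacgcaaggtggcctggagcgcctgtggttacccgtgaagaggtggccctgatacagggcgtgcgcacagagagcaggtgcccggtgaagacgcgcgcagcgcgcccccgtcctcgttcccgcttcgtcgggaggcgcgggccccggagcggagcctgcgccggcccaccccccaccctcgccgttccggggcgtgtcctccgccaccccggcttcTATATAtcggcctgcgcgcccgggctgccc
Igfbp5: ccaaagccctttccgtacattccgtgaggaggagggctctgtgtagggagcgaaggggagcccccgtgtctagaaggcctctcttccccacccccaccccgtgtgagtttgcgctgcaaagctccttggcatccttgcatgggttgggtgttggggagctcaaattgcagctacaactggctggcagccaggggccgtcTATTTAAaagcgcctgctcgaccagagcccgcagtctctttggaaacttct

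These windows had little in common. That of Igf2r held 3 GC boxes and 2 TGACG cores and no TATA-like run, where 32.7% and 17.8% of all 32851 promoter windows of this length hold at least 1 GC box and 1 core. TATATA begins 30 bases before the start of Igfbp3 and TATTTAA begins 51 bases before that of Igfbp5, runs that 5.25% and 4.18% of all windows hold; these spellings were chosen after the sequences were read. The TATA box TATAAA, the box CCAAT, the full response element TGACGTCA and the STAT site TTCNNNGAA were each found in none of the 3 windows. Their GC content was 69.2% for Igf2r, 73.2% for Igfbp3 and 58.8% for Igfbp5, against a median of 52.4% over all windows. Members that did not rise held such runs too. GC boxes stood in windows of Igf2, Igf1r, Igfbp2 and Igfbp7, and a TGACG core stood in a window of Igf2, which fell. The windows of Igf1, Igfbp4 and Igfbp6 held neither, and TATAAA began 28 bases before the start of Igfbp4. A match is letters in a window, not a bound site.

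Igfbp6 (gene 16012), which prefers IGF2 over IGF1, lay just outside the threshold on the low side. It was at 84.1, 125, 142 and 101 FPKM in the libraries labelled Mrp4 KO, against 149.6, 151, 215 and 135 FPKM in WT. Replicate 4 labelled Mrp4 KO lay above WT replicate 4, and otherwise each library labelled Mrp4 KO was below each WT library. The log2 fold change was -0.58 ± 0.18 (SE; fold 0.668, interval 0.501 to 0.89 at 95%; edgeR adjusted p = 0.05579), and it passed in DESeq2, in limma-voom and without replicate 4 labelled Mrp4 KO (-0.71).

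Igfbp2 (gene 16008), made by preadipocytes and by liver, varied most between libraries. It was at 8.05, 16.9, 20.1 and 28.6 FPKM in the libraries labelled Mrp4 KO, against 16.4, 7.28, 9.62 and 8.18 FPKM in WT. Replicate 1 labelled Mrp4 KO lay at the WT level, and WT replicate 1 lay near the middle of the other group. The coefficient of variation was 46.1% in the libraries labelled Mrp4 KO and 39.8% in WT, the highest of the 10 genes in both groups. The log2 fold change of 0.77 ± 0.38 (SE) did not pass (edgeR adjusted p = 0.1743), with the fold at 1.7 and its 95% interval at 0.95 to 3.06. Igfbp2 and Igfbp5 are direct neighbours on chromosome 1, and Igfbp5 passed while Igfbp2 did not; the difference between these neighbours was not tested.

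Igfbp4 and Igfbp7 were the most abundant genes of the system and differed least among the binding proteins. Igfbp4 (gene 16010), whose protein is cut by the protease PAPP-A to free IGF, was at 483, 533, 479 and 542 FPKM in the libraries labelled Mrp4 KO, against 384, 484, 447 and 395 FPKM in WT. WT replicate 2 lay within the range of the other group and the other 3 WT libraries lay below it. Its log2 fold change was 0.19 ± 0.10 (SE; fold 1.14, interval 0.98 to 1.33 at 95%; edgeR adjusted p = 0.1952). Igfbp7 (gene 29817), a matrix-associated relative with weak affinity for IGF, was at 359, 434, 383 and 338 FPKM in the libraries labelled Mrp4 KO, against 358, 329, 390.3 and 315 FPKM in WT. The 2 groups of Igfbp7 values overlapped over most of their range, with a log2 fold change of 0.06 ± 0.10 (SE; fold 1.04, interval 0.897 to 1.21 at 95%; edgeR adjusted p = 0.6925).

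The order of levels was nearly shared by the groups. By mean FPKM it ran Igfbp4, Igfbp7, Igfbp5, Igfbp6, Igf1, Igfbp3, Igfbp2, Igf2r, Igf2 and Igf1r in the libraries labelled Mrp4 KO. In WT Igfbp6 stood above Igfbp5, and Igf2r above Igfbp2. Neighbours whose ranges overlapped within a group, and whose order is thus not resolved, were Igfbp3 with Igfbp2 and Igfbp2 with Igf2r in the libraries labelled Mrp4 KO, and in WT Igfbp4 with Igfbp7, Igfbp3 with Igf2r, Igf2r with Igfbp2 and Igfbp2 with Igf2. The change of place of Igfbp5 and Igfbp6 was seen in every library: the ratio of Igfbp5 to Igfbp6 in FPKM was 1.96, 1.68, 1.11 and 1.88 in the libraries labelled Mrp4 KO, against 0.587, 0.895, 0.432 and 0.613 in WT.

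Summed over the 6 binding protein genes, the level was 1118.3 to 1344.5 FPKM in the libraries labelled Mrp4 KO and 948 to 1170.1 FPKM in WT, with overlap. Igfbp5 made up 14.8% ± 1.19 of that sum in the libraries labelled Mrp4 KO and 9.35% ± 1.82 in WT (SD, n = 4 each), while Igfbp6 made up 9.25% ± 1.89 and 15.2% ± 2.18 of it in these groups. Igfbp4 was the largest part throughout, at 39.6% to 44.4% in the libraries labelled Mrp4 KO and 38.1% to 43.1% in WT. Igfbp7 followed with 27.7% to 32.3% in the libraries labelled Mrp4 KO and 29.3% to 35.5% in WT. These shares are given as a description, since a rise in one lowers the others.

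**Figure D3:**
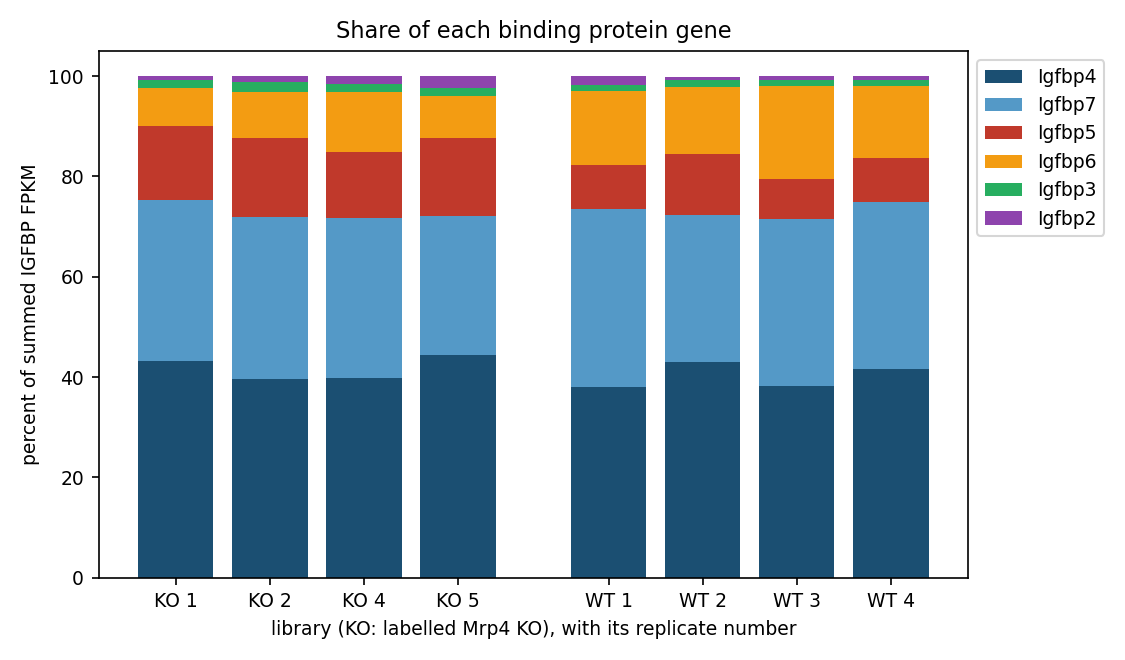
Share of each of the 6 binding protein genes in their summed FPKM, in percent, for each library, with the 4 libraries labelled Mrp4 KO on the left. The Igfbp5 part is 13.1% to 15.7% in these and 7.94% to 12% in WT, and the Igfbp6 part is 7.52% to 11.9% and 13.4% to 18.4%.

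One WT library stood nearer to the other group for several of these genes. WT replicate 2 had the lowest Igf1 of the WT libraries and the highest Igf2r, Igfbp3, Igfbp4 and Igfbp5. For Igfbp2 it went the other way: it was the lowest WT library, at 7.28 FPKM, below every library labelled Mrp4 KO. The same library also held transcripts of the epididymis, with Crisp1 at 13.5 FPKM, against at most 0.6 FPKM in the other 7 libraries; the part of these in its IGF values was not tested.

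A list of 16 tested genes covered partners of the circulating complex, enzymes that release IGF and genes related to these. Of them 2 rose, 0 fell and 14 did not pass, with a median of 0.19. The share that passed, 12.5%, was near the 18.3% of all tested genes. Igfals, which encodes the acid-labile subunit, was at 46.9, 42.5, 53.6 and 70.3 FPKM in the libraries labelled Mrp4 KO, against 38.0, 33.3, 31.3 and 29.9 FPKM in WT. The groups did not overlap (log2 fold change 0.63 ± 0.16 SE, edgeR adjusted p = 0.0275), but the call was lost on leaving out WT replicate 3, WT replicate 4 or the replicate 4 labelled Mrp4 KO. Klkb1, plasma prekallikrein from liver, was the other gene that rose, at 1.16 ± 0.638 FPKM in the libraries labelled Mrp4 KO and 0.1 ± 0.0271 FPKM in WT (SD, n = 4 each; edgeR adjusted p = 0.003716), with 3 to 5 expected counts per WT library. Igfbp1, a liver binding protein beside Igfbp3 on chromosome 11, was at 1.03, 1.44, 1.02 and 1.93 FPKM in the libraries labelled Mrp4 KO, against 0.94, 0.05, 0.14 and 0.19 FPKM in WT. It did not pass (edgeR adjusted p = 0.05813), but did without WT replicate 1, the high WT library, and with library size alone, DESeq2, limma-voom and limma on FPKM. Ctsd, the lysosomal protease cathepsin D, was at 1132.6 ± 198 FPKM in the libraries labelled Mrp4 KO and 821 ± 94.7 FPKM in WT and did not pass (SD, n = 4 each; edgeR adjusted p = 0.07993).

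Several genes of signalling below the IGF and insulin receptors fell: of 29 tested genes 1 rose, 9 fell and 19 did not pass, a share of 34.5% that passed where 18.3% of all tested genes did, with a median of -0.13. Insr, the insulin receptor gene, whose protein can pair with IGF1R in hybrid receptors, was at 21.7 ± 1.05 FPKM in the libraries labelled Mrp4 KO and 27.6 ± 1.3 FPKM in WT (SD, n = 4 each; log2 fold change -0.41 ± 0.07 SE, edgeR adjusted p = 0.005615). Irs1 and Irs2, the docking proteins that both receptors phosphorylate, fell by 0.44 and 0.61 on the log2 scale, and Akt2, the main Akt kinase of insulin action in fat, fell by 0.37. Shc1, Pik3cb, Pdpk1 and Rptor also fell.

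Of 12 tested genes of the growth hormone axis above Igf1, 1 rose, 3 fell and 8 did not pass, with a median of -0.06; 4 of 12 passed, or 33.3%, where 18.3% of all tested genes did. Ghr, the growth hormone receptor gene, was at 513 ± 14.2 FPKM in the libraries labelled Mrp4 KO and 620.2 ± 41.1 FPKM in WT (SD, n = 4 each; log2 fold change -0.35 ± 0.10 SE, edgeR adjusted p = 0.03362); its ranges did not overlap, and its call held among single-library omissions without WT replicate 2 alone, and was lost with library size alone. Stat5a, a transcription factor that growth hormone activates, fell by 0.49, a call lost on leaving out WT replicate 1 or 4, or any of replicates 2, 4 and 5 labelled Mrp4 KO, and with limma on FPKM. Prlr, the related prolactin receptor gene, fell by 0.78. Hnf4a, a liver transcription factor, was the gene that rose, at 2.29 ± 0.956 FPKM in the libraries labelled Mrp4 KO and 0.195 ± 0.01 FPKM in WT (SD, n = 4 each), and it stands in the liver list as well. Socs2, a feedback target of growth hormone, was at 6.01 to 7.21 FPKM in the libraries labelled Mrp4 KO and 5.57 to 7.78 FPKM in WT and did not pass (edgeR adjusted p = 0.5296).

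Of 8 tested relatives that share the IGF-binding domain, 1 rose, 0 fell and 7 did not pass, with a median of 0.59, and this 12.5% was likewise near the 18.3% of all tested genes. The 1 was Nov, a matricellular CCN protein, at 13.6, 13.7, 11.8 and 11.8 FPKM in the libraries labelled Mrp4 KO, against 4.86, 7.65, 7.81 and 5.34 FPKM in WT (log2 fold change 0.93 ± 0.15 SE, edgeR adjusted p = 0.004177). Its relatives Wisp2 and Ctgf had log2 fold changes of 1.16 ± 0.38 and 0.55 ± 0.29 (SE) and did not pass, nor did Esm1 (0.62 ± 0.31).

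Among IGF2 mRNA-binding proteins and genes of the imprinted network that includes Igf2, of 14 tested genes 2 rose, 1 fell and 11 did not pass, with a median of -0.05. Their share that passed, 21.4%, was near the 18.3% of all tested genes. Igf2bp2, which binds Igf2 mRNA, was at 2.0, 2.83, 2.5 and 2.78 FPKM in the libraries labelled Mrp4 KO, against 3.36, 3.35, 4.03 and 5.63 FPKM in WT (log2 fold change -0.76 ± 0.19 SE, edgeR adjusted p = 0.02752). Mest, an imprinted gene that marks fat expansion in mice, was at 205, 252, 207 and 165 FPKM in the libraries labelled Mrp4 KO, against 42.9, 144, 54.1 and 64.9 FPKM in WT (1.38 ± 0.34 SE, edgeR adjusted p = 0.02524). Meg3, an imprinted noncoding RNA, rose by 0.48 on the log2 scale, and Ndn (0.36 ± 0.14 SE) did not pass. The calls were lost in 4 of 8 single-library omissions for Igf2bp2 (WT replicate 3 or 4, replicate 1 or 4 labelled Mrp4 KO) and in 6 of 8 for both Mest and Meg3, whose calls held without WT replicate 2 and replicate 5 labelled Mrp4 KO (Mest) and without WT replicate 3 and replicate 2 labelled Mrp4 KO (Meg3); both were also lost with no filter on low counts. H19, the noncoding neighbour of Igf2 that is expressed from the maternal allele, was at 0.21 to 0.4 FPKM in the libraries labelled Mrp4 KO and 0.32 to 0.46 FPKM in WT.

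Liver transcripts differed between the groups, and their values are set beside those of genes that hepatocytes also make. Of 18 liver transcripts all 18 rose, with a summed level of 914 to 1786.2 FPKM in the libraries labelled Mrp4 KO and 73.3 to 166 FPKM in WT. WT replicate 1 had the highest liver sum in WT and also the highest WT values of Igfbp2, Igfbp1 and Igfals. In the libraries labelled Mrp4 KO, replicate 1 had the lowest liver sum and the lowest Igfbp2. Replicate 5 of that group, with a liver sum of 1275.7 FPKM, had the highest Igfbp2, Igfbp1 and Igfals. Replicate 4 had the highest liver sum and the lowest Igfbp1 of the group, at 1.02 FPKM beside 1.03 FPKM in replicate 1. Replicate 2, with a liver sum of 1769.0 FPKM, had its lowest Igfals, at 42.5 FPKM. Igf1, which hepatocytes make in large amounts, was lower in the group with more liver transcripts. The part of liver RNA in the values of Igfbp2, Igfbp1 and Igfals was not tested.

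**Figure D4:**
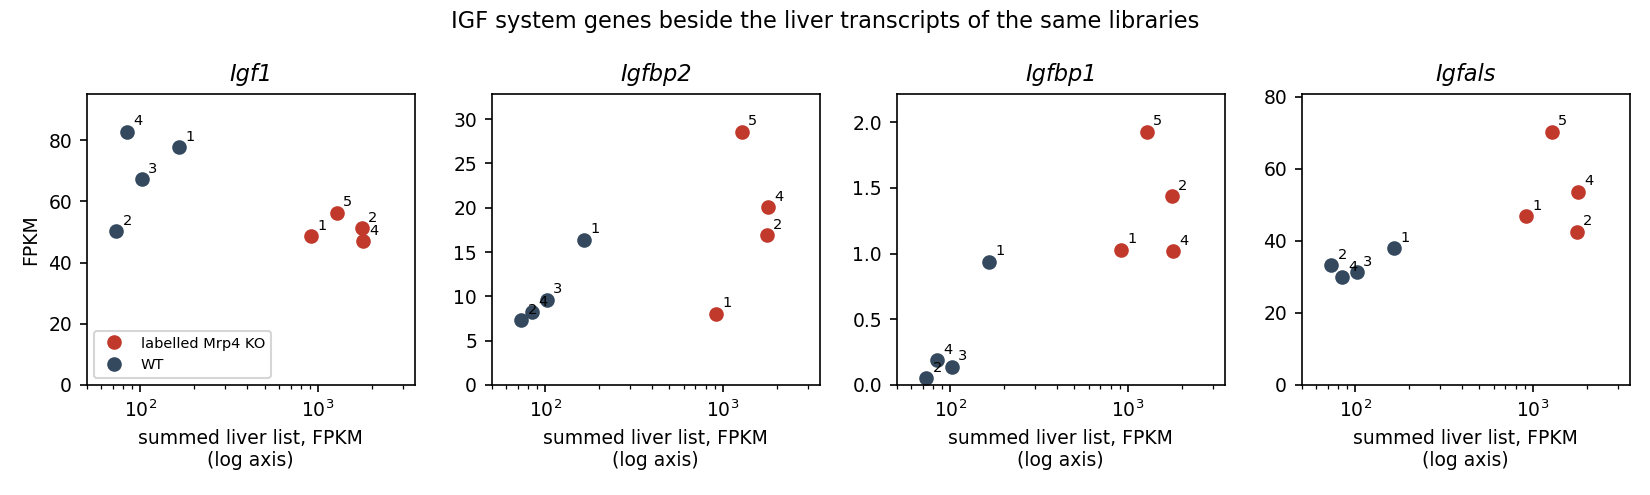
Level of Igf1, Igfbp2, Igfbp1 and Igfals in FPKM against the summed FPKM of 18 liver transcripts (log axis) in each library, numbered by replicate, with libraries labelled Mrp4 KO in red and WT in dark blue. The liver sums of the groups lie apart, at 914 to 1786.2 and 73.3 to 166 FPKM, and WT replicate 1 has the highest WT value of Igfbp2, Igfbp1 and Igfals.

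Markers of several cell types also differed in part, and which cells made the binding protein transcripts was not measured. The share that passed was 58.3% for endothelial, 53.3% for progenitor and fibroblast and 42.9% for macrophage markers, against 18.3% of all tested genes. It was near that 18.3% for mural and lymphocyte markers, with 2 of 10 each, and below it for mesothelial markers, at 9.09%. The differences between these shares were not tested. Of 12 endothelial markers 6 rose, 1 fell and 5 did not pass, with a summed level of 670.3 to 720.1 FPKM in the libraries labelled Mrp4 KO and 433 to 647 FPKM in WT, and the highest WT sum was in replicate 2, as for Igfbp3 and Igfbp5. Of 10 mural markers 2 rose and 8 did not pass, with sums of 520.5 to 615 FPKM in the libraries labelled Mrp4 KO and 411 to 549 FPKM in WT. Of 15 progenitor and fibroblast markers 7 rose, 1 fell and 7 did not pass. Their sums overlapped, at 1576.6 to 1832.2 FPKM in the libraries labelled Mrp4 KO and 1661.6 to 1909.5 FPKM in WT, but much of each sum was Dcn, the matrix gene decorin and the marker that fell. Without Dcn the sums lay apart, at 976 to 1102.0 FPKM in the libraries labelled Mrp4 KO and 764 to 825 FPKM in WT. Dcn was left out after its values were seen, and leaving out the only marker that fell favours a gap in this direction. Of 11 mesothelial markers 0 rose, 1 fell and 10 did not pass, with sums of 103 to 229.7 FPKM in the libraries labelled Mrp4 KO and 219 to 336 FPKM in WT; replicate 1 labelled Mrp4 KO had the lowest sum and the lowest Igfbp6, and WT replicate 3 the highest sum and the highest Igfbp6. Of 14 macrophage markers 5 rose, 1 fell and 8 did not pass, with sums of 907 to 1390.0 FPKM in the libraries labelled Mrp4 KO and 769.6 to 918 FPKM in WT. Lymphocyte markers were low, with sums of 27.2 to 38.6 FPKM in the libraries labelled Mrp4 KO and 18.5 to 21.1 FPKM in WT. Of 10 tested lymphocyte markers 2 rose, 0 fell and 8 did not pass. Much of each sum was Ptprc, at 11.3 to 18.1 FPKM and 7.31 to 9.14 FPKM in these groups. The pancreas markers were low too, with sums of 11.3 to 20.2 FPKM and 6.65 to 8.58 FPKM in these groups. Nearly all of that was Cela1, at 11.2 to 19.9 FPKM and 6.65 to 8.58 FPKM, the 1 pancreas marker that passed the filter on low counts. Markers that were listed in no library were left out of these lists and sums, and no other marker was at 0 in every library. The part of any cell type in the IGF values was not tested.

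The genes whose profile over the 8 libraries was most like that of a ligand were found by the root mean square difference of centred log2(FPKM + 1) values, over 12509 genes. For Igf1 they were the mitochondrial enzyme genes Sdha, Uqcrc2 and Echs1, with differences of 0.073, 0.076 and 0.077. For Igf2 they were the receptor phosphatase gene Ptprd, at 0.051, then Them6 and 0610011F06Rik, at 0.072 and 0.078. Sdha was at 122 ± 6.26 FPKM in the libraries labelled Mrp4 KO and 167 ± 25.2 FPKM in WT (SD, n = 4 each). Its log2 fold change was -0.52, as for Igf1. The profiles span both groups, so a like fold change follows from how Sdha was chosen and is no further likeness. A small difference here says that a profile rises and dips in the same libraries by a like amount, and it was chosen as the smallest of many.

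**Figure D5:**
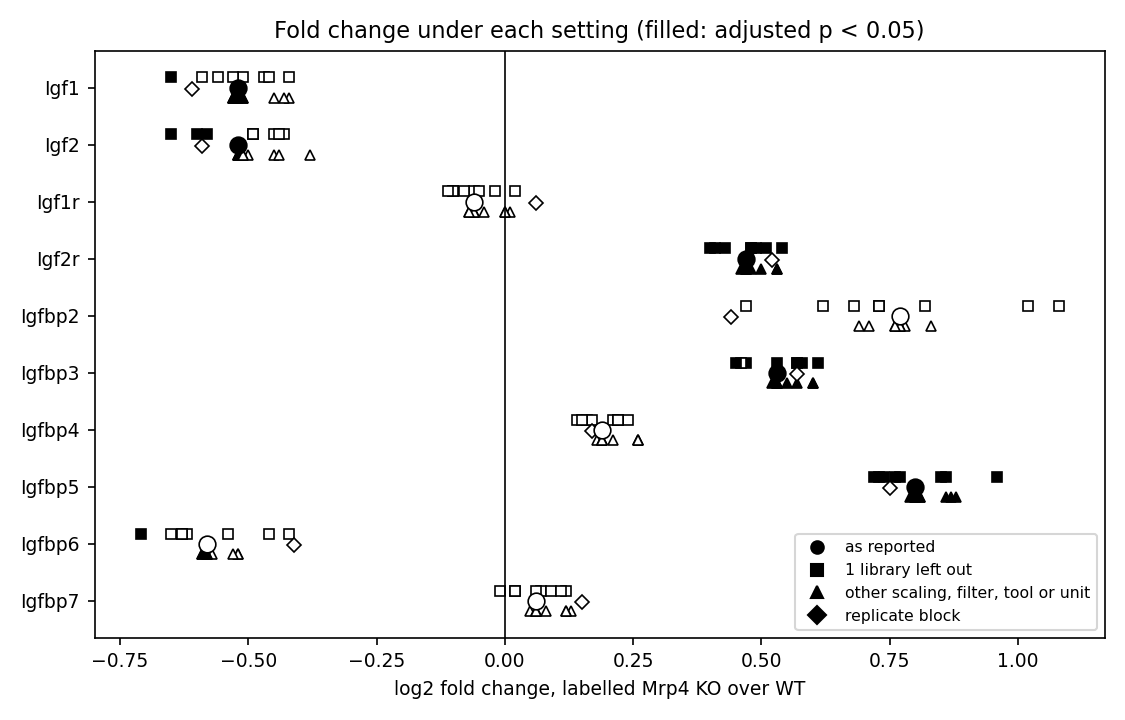
Log2 fold change of each gene under every setting: as reported (circle), with 1 library left out (squares), with another scaling, filter, tool or unit (triangles) and with the replicate number as a block (diamond); filled symbols passed an adjusted p of 0.05. Igf2r and Igfbp5 stay filled in each setting but the block, and Igf1 and Igf2 turn open in many.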

How the data were processed

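RNA of 8 epididymal fat samples was captured with poly-T beads and read as pairs on the BGISEQ-500, per the labels' protocols. Per the submitters' processing notes, Bowtie2 and build mm9 were used; no quantifier is named. Each sample table holds, per the file headers, expected counts, FPKM and a transcript length in bases as deposited by the authors; a gene not listed in a sample was taken as 0. The expected counts, estimates of which 91.99% to 92.59% were whole, were rounded and tested in edgeR 4.0.16 (R 4.3.3) with filterByExpr, which left 14257 genes, TMM scaling and the quasi-likelihood test on genotype alone. SE is the log2 fold change over the square root of F. Fitted folds use TMM scaling and the authors' FPKM does not, so ratios of mean FPKM differ slightly from them. Intervals cover the spread between libraries, and PCR reads had no molecular identifiers.

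The genes and lists were chosen with earlier results of these data known. Named genes were the 10 members, Abcc4, and the 3 profiles most like each ligand. In each list, up to 4 genes of lowest p that reached 1 FPKM on average in either group were also named. Genes of the cell marker lists are given as counts. Shc1, Pik3cb, Pdpk1, Rptor, Socs2, H19, Airn, Crisp1, Dcn, Cfd, Ptprc and Cela1 were named after their values were seen. Alternatives used DESeq2 1.42.0 and limma 3.58.1. Marker sums without Dcn or Cfd were added after seeing the data. Scripts were tested on simulated counts. Some genes counted in the signalling list are not reported here by name.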

Additional observations from a re-analysis of the deposited data

Results flagged for a closer look

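Of all values, 6 among the 74 groups of 4 libraries lay far from the other 3 by Dixon's criterion at 95%, where chance gives about 1 in 20. Igfbp1 in WT replicate 1 was at 0.94 FPKM, with the other WT libraries at 0.05 to 0.19 FPKM. Akt2 in WT replicate 1 was at 174 FPKM, with the others at 155 to 157 FPKM. Klkb1 in WT replicate 2 was at 0.14 FPKM, with the others at 0.08 to 0.09 FPKM, and Hnf4a in WT replicate 4 was at 0.21 FPKM, with the others at 0.19 FPKM. Both genes were near the floor in WT, with 3 to 5 expected counts per library for Klkb1 and 12 to 13 for Hnf4a. Their flags thus rest on differences of a few reads. Meg3 in replicate 2 labelled Mrp4 KO was the low value, at 26.4 FPKM, with the others at 34.4 to 35.2 FPKM. Them6 in the same library was at 3.43 FPKM, with the others at 2.53 to 2.59 FPKM. Of the 10 IGF system genes, 0 had such a library in either group.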

How the results depend on the processing

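The rise of Igf2r, Igfbp3 and Igfbp5 passed under every other scaling, filter, tool and unit tried; with 1 library left out, 2 to 3 members passed higher, and 0 at an adjusted p under 0.01. The fall of the ligands depended on the setting. Members passing lower numbered 0 with library size alone, 0 in limma on log2(FPKM + 1) and 0 on log2(FPKM + 0.1), 1 with upper quartile factors, 1 with a filter at 1 CPM, 0 at an adjusted p under 0.01, and 0 to 2 with 1 library left out; 3 were lower at an unadjusted p under 0.05 in each of these fits, and DESeq2 gave 3 (Igfbp6 added). Libraries with the same replicate number did not deviate together (correlations of 0.01, -0.07 and -0.13 for numbers 1, 2 and 4), so the numbers were not taken as pairs. With the replicate number as a block, 0 members passed higher and 0 lower (3 and 2 at an unadjusted p under 0.05) and 141 genes in all; the block leaves fewer residual degrees of freedom, and Igfbp3 and Igfbp5 had log2 fold changes of 0.57 and 0.75. Over all genes 2606 passed, 551 at 0.01, 4178 at 0.1, and 1172 (without WT replicate 4) to 3683 (without WT replicate 2) with 1 library left out. Of the genes that passed, 55.9% were higher, and 74.1% with library size alone. On log2(FPKM + 1), 3 members had an exact permutation p under 0.05, and 4 on scaled CPM. No member that passed changed sign.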
